A study of Mus musculus with 2 samples.

Results

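Mir221 and Mir222 are neighbouring microRNA (miRNA) genes of the mouse X chromosome, and they are described here by their read counts in fetal liver. The genes were taken by name, and both of the 2 were found among the 1973 miRNA genes of the deposited tables. The study has 1 group of 2 libraries, made from liver of B6NCrl mice, a C57BL/6N stock, at embryonic day 15.5. Both sexes were pooled, with 78 embryos in replicate 1 and 62 in replicate 2, no treatment or mutation is named, and RNA of under 30 nucleotides was sequenced. There was thus no comparison between conditions. Each pool averages many embryos, so the spread between replicates is that of pools and of library making.

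A miRNA guides Argonaute proteins to messenger RNAs that pair with its seed, bases 2 to 8 from its 5′ end, and lowers their translation or stability. miR-221 and miR-222 are best known as repressors of Kit, the receptor of stem cell factor, which early red cell precursors need in order to divide. In cultures of human progenitors both miRNAs fall as red cells mature. They are also made by endothelial and smooth muscle cells, and fetal liver at this stage holds hepatocytes, vessels and a large population of maturing red cells.

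The mature sequences are shown because the shared seed, in capitals, places the pair in 1 family. They are written 5′ to 3′ as RefSeq gives them for GRCm38.p6.
miR-221-3p: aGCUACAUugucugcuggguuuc
miR-222-3p: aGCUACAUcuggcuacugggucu
miR-1928: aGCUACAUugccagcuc
The strands miR-221-3p and miR-222-3p are both 23 bases long. They had the first 8 bases in common and, compared from base 1 without gaps, 11 of 23 positions. Of 1738 mature mouse miRNAs in the table, 3 had this seed, and miR-1928, of a gene on chromosome 1, was the third. The opposite arm of the Mir221 hairpin yields another mature strand, whose seed, again in capitals, differed.
miR-221-5p: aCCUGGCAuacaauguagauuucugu
The counts are of hairpin genes and do not separate the arms.

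The hairpins are shown with the 3p strand in capitals, since this is the whole stretch over which reads were counted.
Mir221 hairpin: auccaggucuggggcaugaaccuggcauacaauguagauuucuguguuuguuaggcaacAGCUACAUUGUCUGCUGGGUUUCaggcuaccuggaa
Mir222 hairpin: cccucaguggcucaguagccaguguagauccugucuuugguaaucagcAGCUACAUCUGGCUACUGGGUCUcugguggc
Mir221 (ENSMUSG00000065422.1) lies at chrX:19146294-19146388 and Mir222 (ENSMUSG00000065471.1) at chrX:19146893-19146971, both on the minus strand of GRCm38. Transcription on that strand meets Mir222 first, and 504 bases separate the hairpins. In annotation release M21 neither lay in an exon or intron of another gene. The nearest annotated gene was Gm14636, a noncoding transcript on the same strand, 10010 bases away. Aligned end to end, the hairpins were identical at 60 of 96 positions (62.5%). Each mature strand was found in 1 of the 1005 hairpins in the table. Only uniquely mapped reads were counted, and no other listed hairpin holds these strands.

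Sense miRNA counts, those on the strand of the gene, came to 5529166 in replicate 1 and 3169882 in replicate 2. Levels are given as counts-per-million (CPM) of this total, with no division by length, since a read of this kind spans a mature miRNA of about constant size. Adapter ligation favours some sequences over others, which limits comparisons of level between miRNAs. As to the tissue label, Mir122, the miRNA of hepatocytes, was the most abundant gene at 182337 and 168741 CPM. The libraries were distinct, with a chi-square per degree of freedom of 68.6 over genes.

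Both genes were detected, at moderate levels. Mir221 had 1923 sense counts in replicate 1 and 1109 in replicate 2, or 347.8 and 349.9 CPM. Its mean was 349 ± 1.46 CPM (SD, n = 2). That SD is smaller than the counting error of each library, 2.28% and 3.00% of the count, so the closeness of the values should be read within that error. Mir222 had 902 counts in replicate 1 and 565 in replicate 2, or 163 and 178 CPM, with a mean of 171 ± 10.7 CPM (SD, n = 2). The exact 95% intervals, which cover counting error only, were 332 to 364 and 330 to 371 CPM for Mir221 in replicates 1 and 2. They were 153 to 174 and 164 to 194 CPM for Mir222. The intervals of the genes did not overlap in either library. In bulk tissue, fewer cells that make a miRNA and less of it per cell cannot be told apart.

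By mean CPM, Mir221 ranked 133 and Mir222 ranked 166 of 1973 genes. Detection here means 10 or more counts in each library, which 352 genes reached. Of these, 62.2% were lower than Mir221 and 52.8% were lower than Mir222, and the median detected gene stood at 135 CPM. Both thus lay above the middle of the detected genes and far below the abundant ones. On the X chromosome 37 of 120 miRNA genes were detected. Mir221 was 16th and Mir222 20th there by mean CPM, and the highest was Mir322, known from muscle differentiation, at 22429 ± 2237 CPM (SD, n = 2).

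The pair together took 0.0511% of sense counts in replicate 1 and 0.0528% in replicate 2, with exact 95% intervals of 0.0492 to 0.0530% and 0.0503 to 0.0554%. The mean share was 0.0520% ± 0.00121 (SD, n = 2). Opposite-strand counts at both genes were 0 in both libraries. The fixed limit of 3 counts used to mark 0 counts is 0.543 CPM in replicate 1 and 0.946 CPM in replicate 2 over the sense totals. Mir1928, the other gene with the seed, also had 0 counts in both, with exact 95% intervals that reach 0.667 CPM in replicate 1 and 1.16 CPM in replicate 2. Within the counted reads, none was thus assigned to the other gene of the seed.

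Mir221 exceeded Mir222 in both libraries. The ratio of their sense counts was 2.13 in replicate 1 and 1.96 in replicate 2, with a mean of 2.05 ± 0.120 (SD, n = 2). The exact 95% intervals were 1.97 to 2.31 and 1.77 to 2.18. Mir221 made up 68.1% and 66.2% of the pair. The difference between these ratios did not pass the test (Fisher's exact test on the counts, two-sided, p = 0.211), with an odds ratio of 0.921 for replicate 2 over replicate 1.

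Other neighbouring miRNA genes, on 1 strand and with starts within 10 kb, were set beside the pair as a description. Both genes were detected in 101 such pairs, Mir221 and Mir222 included. The levels of Mir221 and Mir222 lay 1.03 apart on the log2 scale, and 18 of the 101 pairs lay closer, while the median pair was 2.90 apart. Between the libraries the log2 ratio within the pair moved by 0.12, and 36 of the 101 pairs moved less, with a median of 0.15. Among the 57 pairs with both genes at 100 CPM or more, the median level difference was 2.15 and 14 pairs lay closer, while 28 moved less. Some of the other pairs hold a gene, such as Mir16-1, Mir16-2 or Mir24-2, whose mature sequence is also made by another gene. Reads that fit several places entered no count, so the level differences of such pairs are uncertain. The medians, and the place of Mir221 and Mir222 among the pairs, carry the same limit.

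**Figure D1:**
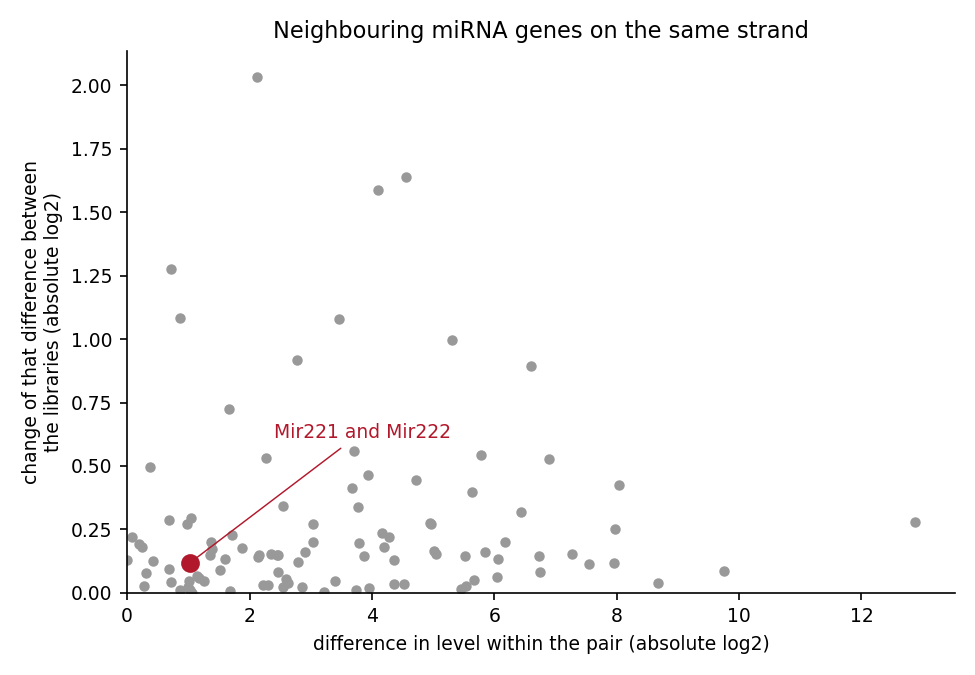
Each point is a pair of detected neighbours on 1 strand, with starts within 10 kb (101 pairs). The horizontal axis gives the absolute log2 difference of their mean CPM and the vertical axis the absolute change of that difference between the libraries. Mir221 and Mir222, in red, lie at 1.03 and 0.12, near the lower left corner, with 18 pairs closer in level. Level differences are uncertain for pairs with a gene whose mature sequence is also made elsewhere.

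To see how far single genes differ between the pools, counts were put to an exact binomial test (two-sided), scaled by TMM (trimmed mean of M values, a scaling that discounts genes that differ most) and adjusted over all genes by the Benjamini-Hochberg method. The test covers counting error only and compares these 2 libraries. Of 456 genes tested, 178 differed, or 39.0%, with 18.2% higher and 20.8% lower in replicate 2. Among genes at 100 CPM or more, a range that holds both members, 62.0% of 187 differed. Neither Mir221 nor Mir222 did, with 0 of 2 called, 0 with an unadjusted p under 0.05, and 0 when scaled by total counts or by DESeq2 size factors. The test finds smaller differences at higher counts, and most of the 187 genes had more counts than either member. The 62.0% is therefore no measure of how often genes at the level of the members are called.

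The log2 ratio of replicate 2 over replicate 1 was -0.03 for Mir221 (exact binomial test, adjusted p = 0.746), with a 95% counting interval of -0.14 to 0.08, and its sign turned with the scaling, to 0.0085 with total counts and 0.0049 with DESeq2 size factors. For Mir222 it was 0.09 (exact binomial test, adjusted p = 0.395), with an interval of -0.06 to 0.24. The intervals correspond to 0.910 to 1.06-fold for Mir221 and 0.957 to 1.18-fold for Mir222. Across the 187 genes at 100 CPM or more, the SD of log2 ratios was 0.203 and the median absolute ratio 0.111. Of them, 13.9% had a smaller absolute ratio than Mir221 and 40.1% a smaller one than Mir222.

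**Figure D2:**
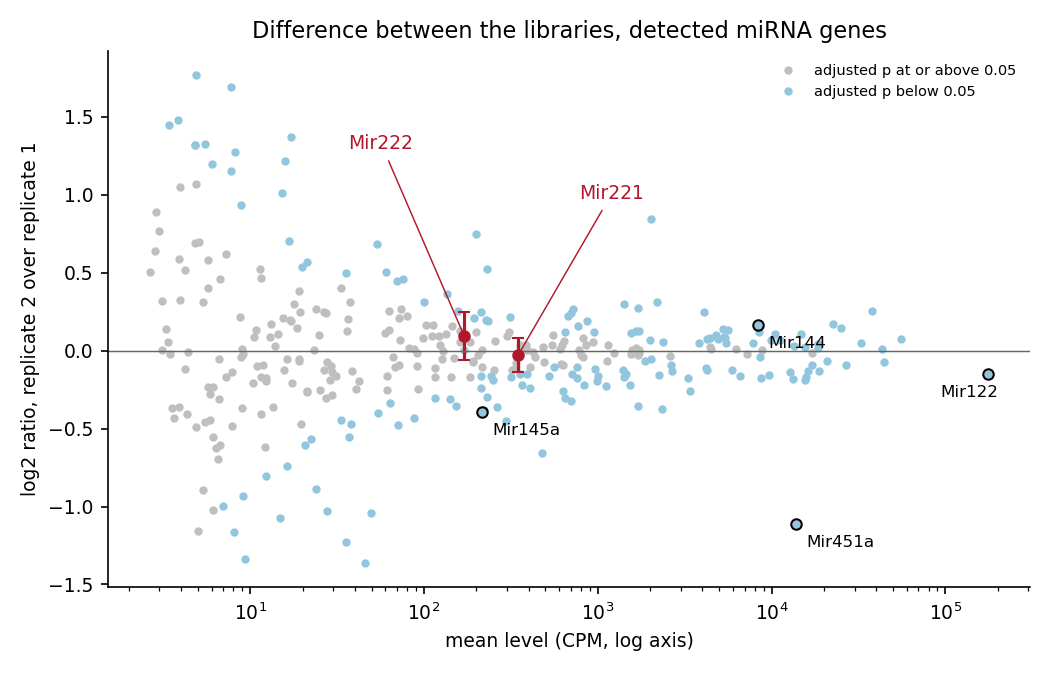
Each point is 1 of 352 detected miRNA genes, with mean CPM on a log axis and the log2 ratio of replicate 2 over replicate 1 on the vertical axis. Blue points had an adjusted p below 0.05, and grey points did not. Mir221 (-0.03) and Mir222 (0.09), in red with exact 95% counting intervals, lie near 0, the sign of Mir221 turning with the scaling, while Mir451a lies at -1.11.

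Each of the miRNAs listed as rising in red cell maturation had more counted reads than Mir221 and Mir222 together. Which cells their reads came from was not tested. The levels of the listed miRNAs ran from Mir486 at 766 ± 73.4 CPM to Mir451a at 13751 ± 6940 CPM (SD, n = 2). The list of miRNAs that rise in red cell maturation has 6 genes, all detected, and held 4.22% of sense counts in replicate 1 and 3.47% in replicate 2. Mir451a, a red cell miRNA processed without Dicer, gave 18658 CPM in the first pool and 8843 CPM in the second, the widest gap of the list. Mir144, made from the same transcript, stood at 7777 and 8918 CPM, and Mir486, of the erythrocyte ankyrin gene, at 715 and 818 CPM. Of the list, 4 were higher in replicate 2, Mir144 (log2 ratio 0.16) and Mir486 (0.16) among them, and 1 was lower, Mir451a (-1.11), where 62.0% of all genes at 100 CPM or more differed. The others were Mir15a and Mir16-1, both called higher at 0.07, and Mir16-2, at -0.04 and not called. Mir16-1 and Mir16-2 share a mature sequence, and a read that fits both entered neither count, so their levels are uncertain. The level of Mir486 is uncertain as well. A second miRNA gene, Mir3107, lies opposite to it, and any read that fits both would have entered neither count. Its place as the lowest of the list thus covers counted reads only.

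For each Mir221 read there were 53.6 Mir451a reads in replicate 1 and 25.3 in replicate 2, a change of 0.471-fold. For Mir144 these were 22.4 and 25.5, a change of 1.14-fold. Both changes passed Fisher's exact test on the counts (adjusted p = 3.16e-78 and 0.00256, over 16 ratios of 8 genes to the members, a set added after their values were seen). For Mir222 the change was 0.434-fold with Mir451a (Fisher's exact test, adjusted p = 1.05e-48) and 1.05-fold with Mir144 (adjusted p = 0.444, exact). Mir486 reads changed 1.14-fold for each Mir221 read and 1.05-fold for each Mir222 read (Fisher's exact test, adjusted p = 0.00896 and 0.472). In the pool where Mir451a was lower, neither member's level differed by the test above. Both libraries are of 1 stage, so the fall of miR-221 and miR-222 over red cell maturation was not measured here.

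Of the miRNAs described to fall with red cell maturation in human cells, other than the members, 4 were measured and all 4 were detected. Mir223, of granulocytes and their precursors, stood far above the pair at 18838 ± 901 CPM (SD, n = 2) and was lower in replicate 2 (log2 ratio -0.13, exact binomial test, adjusted p = 2.93e-71). Mir24-2 stood between Mir221 and Mir222 at 217 ± 4.09 CPM. Its mature sequence is also made by Mir24-1, not analysed here, so its level is uncertain. Mir155, a miRNA of activated leukocytes, stood at 103 ± 10.1 CPM and Mir150, of mature lymphocytes, at 19.1 ± 0.300 CPM, both below the pair. Of the 4 genes, Mir223 was the 1 that differed between the libraries, against 39.0% of all genes tested.

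Markers of cells that can make miR-221 and miR-222 were measured beside them. Mir126a, the endothelial miRNA of Egfl7, stood at 44812 and 43586 CPM in replicates 1 and 2, lower in the second (log2 ratio -0.08, adjusted p = 1.26e-54 by the exact binomial test), and there were 129 and 125 Mir126a reads for each Mir221 read (Fisher's exact test, adjusted p = 0.444). For each Mir222 read there were 275 and 245, a change of 0.890-fold (Fisher's exact test, adjusted p = 0.0498). In the smooth muscle list, Mir143 stood at 16474 and 14791 CPM and Mir145a at 243 and 190 CPM. Both were lower in replicate 2, with log2 ratios of -0.19 and -0.39, where 62.0% of all genes at 100 CPM or more differed in either direction. Mir143 reads changed 0.893-fold for each Mir221 read (Fisher's exact test, adjusted p = 0.00808) and 0.822-fold for each Mir222 read (adjusted p = 0.00168, exact). Such falls were not limited to these markers. Mir122 reads changed 0.920-fold for each Mir221 read and 0.847-fold for each Mir222 read (Fisher's exact test, adjusted p = 0.0498 and 0.00675). For Mir223 the changes were 0.929-fold and 0.855-fold (Fisher's exact test, adjusted p = 0.0794 and 0.00896). Of the progenitor list, Mir130a stood at 17040 and 17270 CPM, and there were 49.0 and 49.4 Mir130a reads for each Mir221 read (Fisher's exact test, adjusted p = 0.849). For each Mir222 read there were 104 and 96.9 (Fisher's exact test, adjusted p = 0.220). Mir99b stood at 6146 and 6360 CPM and Mir125a at 1143 and 1119 CPM. In that list 0 of 3 genes differed between the libraries by the exact binomial test, where 62.0% of all genes at 100 CPM or more differed. Of the 3, 2 had an unadjusted p under 0.05, 2 differed when scaled by total counts and 1 by DESeq2 size factors. Of the leukocyte list 4 genes were analysed, and the highest after Mir223 was Mir146, an inflammation-linked miRNA, at 319 ± 20.7 CPM (SD, n = 2). These 2 were lower in replicate 2, and 1 was with total counts, against 20.8% of all genes tested. At 100 CPM or more, a range that holds both, 62.0% of genes differed in either direction. Mir142, a miRNA of blood cells and the other gene of that list, has no level here. It lies, in release M21, within Mir142b on the opposite strand (a gene named after its values were seen), where 193651 and 131496 reads were counted in replicates 1 and 2, more than the 107680 and 57695 of Mir223. Which of these cell types the reads of the pair came from was not tested.

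**Figure D3:**
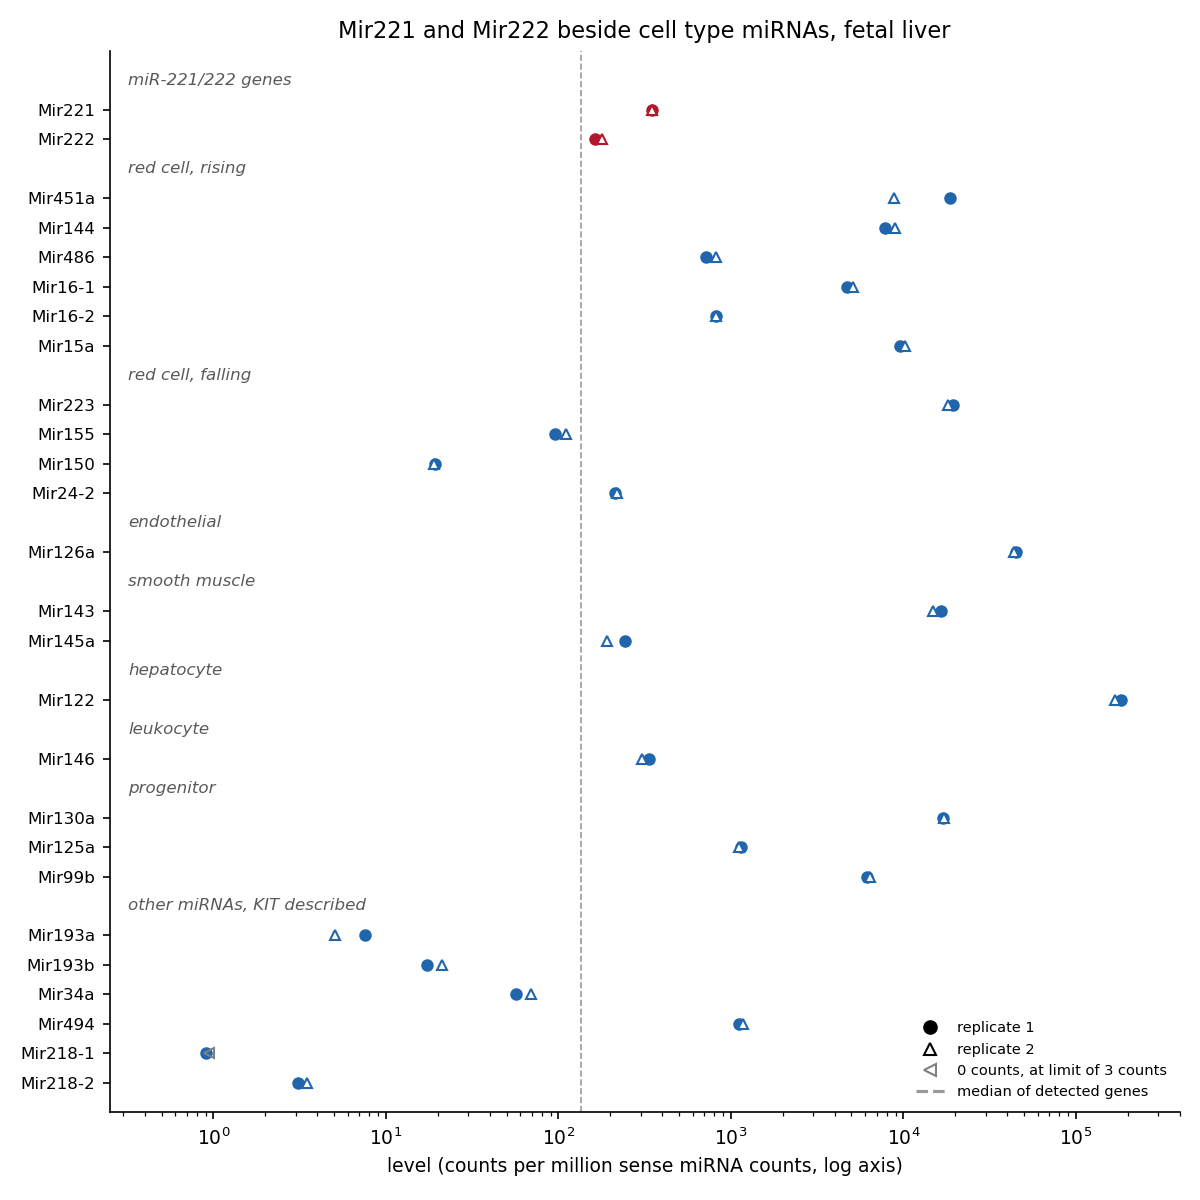
Levels in CPM on a log axis are drawn for each gene in replicate 1 (filled circles) and replicate 2 (open triangles), with Mir221 and Mir222 in red and the median of detected genes, 135 CPM, as a dashed line. Grey open triangles pointing left mark 0 counts, drawn at the limit of 3 counts, and genes on several lists are drawn once. Mir221 and Mir222 lie just right of the line, below Mir126a, Mir223 and Mir451a and above Mir155 and Mir34a.

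Other miRNAs have been described to repress KIT in human cells, and their levels were set beside those of the pair. Of 6 such genes, 5 were detected, with a median mean level of 12.8 CPM over all 6. Mir494, of the imprinted Dlk1-Dio3 cluster on chromosome 12, was higher than Mir221 and Mir222 at 1142 ± 39.6 CPM (SD, n = 2). Mir34a, a target of p53, stood at 62.8 ± 8.82 CPM. Mir193b and Mir193a stood at 19.2 ± 2.67 and 6.32 ± 1.80 CPM. Mir218-2 stood at 3.27 ± 0.280 CPM, and Mir218-1 had 5 counts in replicate 1 and 0 in replicate 2. Both Mir218 genes make the same mature miRNA, so their counts are uncertain. The summed level of the pair was 511 CPM in replicate 1 and 528 CPM in replicate 2, against 1200 and 1269 CPM for the list. Of 5 genes tested, 0 differed between the libraries by the exact binomial test, against 39.0% of all genes tested. Of the 5, 0 had an unadjusted p under 0.05, 1 differed when scaled by total counts and 0 by DESeq2 size factors.

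The genes whose pattern lay nearest to each member were found by distance over log2(CPM + 1) in the 2 libraries among detected genes. With only 2 libraries this is mostly a likeness of level. Nearest to Mir221 were Mir410 (339 ± 7.58 CPM), Mir350 (358 ± 12.9 CPM) and Mir148b (338 ± 11.8 CPM), at distances of 0.0707, 0.0711 and 0.0857. Nearest to Mir222 were Mir412 (169 ± 3.47 CPM), Mir1306 (161 ± 13.0 CPM) and Mir539 (161 ± 7.22 CPM), at distances of 0.0636, 0.117 and 0.122. None of the 6 lay on the X chromosome, and Mir410, Mir412 and Mir539 lie on chromosome 12.

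The described targets were examined in sequence only, since messenger RNA was not measured in these libraries. The 3′ untranslated region after each stop codon was read from GENCODE M21 transcripts on GRCm38, taking the longest for each gene. It was searched on the transcript strand for ATGTAGC, which pairs with bases 2 to 8 of the seed, and for its core TGTAGC, which pairs with bases 2 to 7. A following A, opposite base 1 of the miRNA, extends the match to 8 bases, ATGTAGCA. The core lies within the longer motifs. Of 20773 genes, 9.52% held ATGTAGC and 28.3% held TGTAGC. A match is a string of letters and not a shown binding site.

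Kit (chromosome 5) had 2 matches in a region of 2177 bases, and both were of the full 8 bases. Their cores began at bases 448 and 1979 of the region. Among the 4755 genes with a region at least as long, cut to the same length, 15.9% held ATGTAGC, 5.97% held ATGTAGCA and 9 (0.189%) held ATGTAGCA more than once. Here and below, the genes behind such a share include the named gene itself, so Kit is among these 9. The count of repeated matches was not planned beforehand. The Kit matches are shown with 2 cell cycle inhibitors that are described targets, Cdkn1b (p27) and Cdkn1c (p57), with ATGTAGC in capitals.
Kit, chr5:75654978-75655000, plus strand: atgatgggagatatATGTAGCaa
Kit, chr5:75656509-75656531, plus strand: ttgtaaatattgaaATGTAGCaa
Cdkn1b, chr6:134924417-134924439, plus strand: tctaaaagcattggATGTAGCat
Cdkn1c, chr7:143458924-143458946, minus strand: gggacctttcgttcATGTAGCag
All 4 have an A after the capitals. Cdkn1b held 4 core matches in 3439 bases, of which 1 was of 8 bases, and Cdkn1c held 1, of 8 bases, in 688 bases. Of genes with regions at least as long, cut to the same length, 24.6% held ATGTAGC at the length of Cdkn1b and 4.53% at that of Cdkn1c.

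Of the 9 described targets other than Kit, 8 held the core, 6 held ATGTAGC and 5 held ATGTAGCA. The last 5 were Cdkn1b, Cdkn1c, the transcription factor gene Ets1, and the cell death genes Bcl2l11 (Bim) and Bbc3 (Puma). Timp3, an inhibitor of metalloproteinases, held ATGTAGC without the A. The share of genes with ATGTAGC was 24.4% at the length of Ets1, 25.4% at that of Timp3, 29.0% at that of Bcl2l11 and 6.64% at that of Bbc3. The core was held by 63.0% of such genes at the length of Cdkn1b, 16.7% at that of Cdkn1c and 62.8% at that of Ets1. It was held by 64.2% at that of Timp3, 68.7% at that of Bcl2l11 and 23.8% at that of Bbc3. ATGTAGCA was held by 9.76% at the length of Cdkn1b, 1.70% at Cdkn1c, 9.77% at Ets1, 10.8% at Bcl2l11 and 2.39% at Bbc3. Foxo3 and Pik3r1 held only the core, in regions of 4490 and 4317 bases, lengths at which 69.8% and 69.0% of such genes hold it. Tbk1 held none in 682 bases. Kit and these 9 genes were listed because they are described targets in mammalian cells, so their matches are no independent evidence.

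Of 7 red cell genes outside that list, 2 held ATGTAGC and 0 held ATGTAGCA. Gata1, the master transcription factor of red cells, held 1 in 497 bases, against 3.17% of genes at that length. Its match overlapped no other, though a core match began 8 bases before. Kitl, which encodes the ligand of Kit, held 1 in 4435 bases, against 29.2% of genes at that length. Klf1, Tal1, Lmo2, the erythropoietin receptor gene Epor and the beta-globin gene Hbb-bt held no core match. Their regions were between 132 and 3030 bases long. For the 7 genes, the share of genes with ATGTAGCA at each length ran from 0.229% (Hbb-bt) to 11.3% (Kitl).

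**Figure D4:**
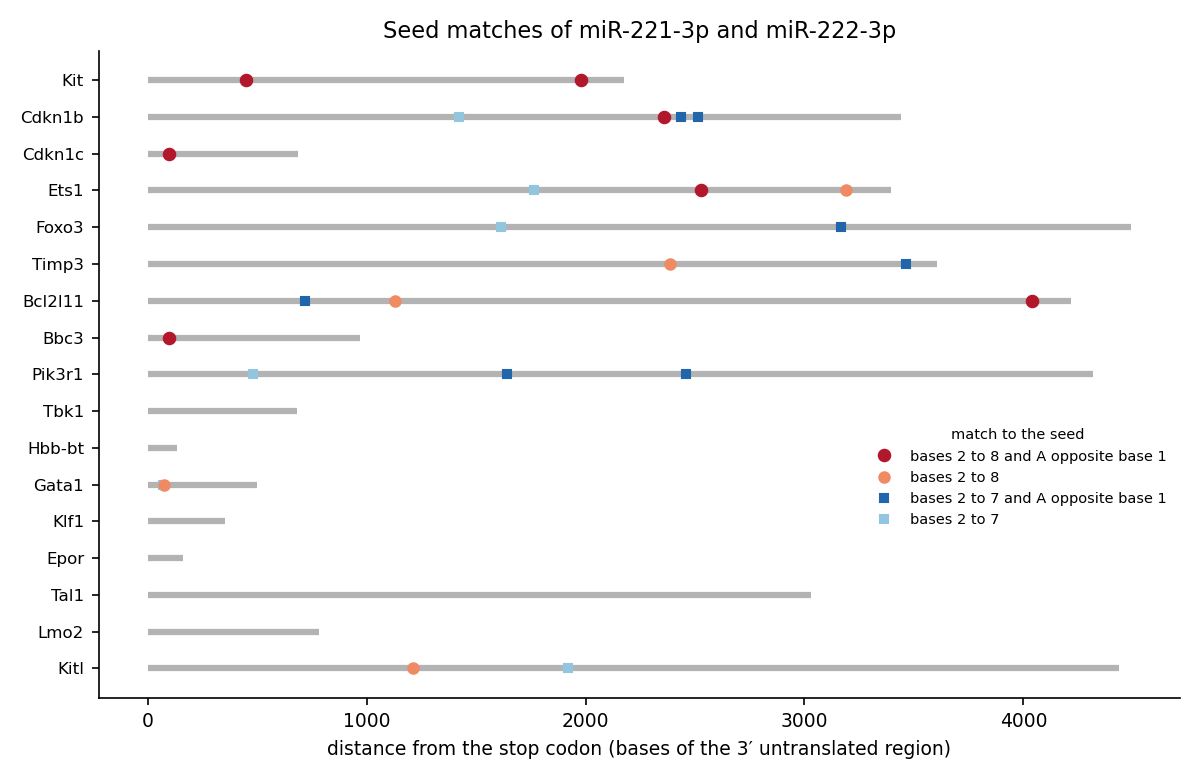
Grey bars are the 3′ untranslated regions of Kit, 9 other described targets and 7 red cell genes, drawn from the stop codon in bases. Symbols mark the start of each core match, by how far it pairs with the seed of miR-221-3p and miR-222-3p and whether an A lies opposite base 1. Kit carries 2 matches of 8 bases, at 448 and 1979, and the symbols of Gata1, at 68 and 76, overlap in the drawing.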

How the data were processed

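The authors deposited whole-number counts of reads per miRNA gene, 1 table for each of 2 libraries and with no normalization. Each table has 3 count columns, for both strands, the strand of the gene and the opposite strand. Per the deposited text beside the tables, counting used mm10 and annotation release M4. No aligner or counting program is named there: not given in the sources used here. Of all reads, 29.3% in replicate 1 and 31.1% in replicate 2 mapped to several places and entered no gene count, and 23.9% and 21.4% were unmapped.

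Names and positions came from release M21 on the same assembly for 1894 of 1973 identifiers. CPM used sense totals. TMM scaling over detected genes came from edgeR 4.0.16, with DESeq2 1.42.0 size factors as an alternative, and exact tests and intervals came from scipy 1.17.1. Genes with at least 10 counts summed were tested, at an adjusted p of 0.05. The binomial test was tried on simulated counts that held counting error only, and the Benjamini-Hochberg adjustment on a known example. The other steps were not tried in this way. The members, the lists and the targets were chosen with earlier results of these data known. A described target of the list is not reported here and is left out of its counts. Named genes are the members, the listed genes and the 3 nearest to each member in pattern. Replicates are separate pools by the labels, and p-values compare 2 libraries. The labels name no molecular identifiers, and PCR copies of 1 molecule may recur among reads, hence the intervals and limits cover counting error only.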

Additional observations from a re-analysis of the deposited data

Results flagged for a closer look

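Reads on the strand opposite to the gene, which the levels leave out, passed 3 counts in both libraries at 4 of the genes described. Mir142b had 193651 in replicate 1 and 131496 in replicate 2, and the listed gene Mir142 lies on that strand. Mir486 had 347 in replicate 1 and 203 in replicate 2, Mir126a had 134 and 61, and Mir130a had 77 and 43. Mir486 overlaps Mir3107 on the other strand. There is no control sample to set them against. Mir221 and Mir222 had 0.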

How the results depend on the processing

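The tests of Mir222 kept their direction and their side of the threshold under all 6 alternatives. For the ratio of Mir221 to Mir222 and the test of its difference between libraries, the alternatives could not show instability. Opposite-strand counts were 0 at both genes, so counting both strands had to return the same values. The other alternatives of the ratio were the single libraries and their summed counts, which had to lie within the range of the libraries. The log2 difference of Mir222, 0.09 as reported, reached 0.18 with replicate 1 thinned to the depth of replicate 2 and was not called there, with adjusted p of 0.112 to 0.496 over its 6 alternatives (exact binomial test). The log2 difference of Mir221 between libraries, -0.03 as reported, was 0.0085 with total counts and 0.0049 with DESeq2 size factors, and it was called under none of the 6 alternatives. Its direction therefore depends on the scaling. Levels depend on the denominator. Mir221 stood at 318 CPM with both strands counted, 423 CPM with Mir122 left out of the total and 354 CPM with Mir451a left out, and Mir222 at 155 CPM with both strands and 207 CPM without Mir122. With both strands Mir221 ranked 141 and Mir222 ranked 175. With 1 library left out in turn, Mir221 ranged from 347.8 to 349.9 CPM, Mir222 from 163 to 178 CPM and the ratio from 1.96 to 2.13. Of neighbouring pairs, 17.8% were closer in level than Mir221 and Mir222, and 20.7% with at least 50 counts. Genes that differed between libraries numbered 178, and 155 to 186 under the alternatives. Of those called, 46.6% were higher in replicate 2, and 54.8% with total counts. No paired analysis was possible because there is 1 group. A depth of 902 counts or fewer for Mir222 leaves a counting error of at least 3.33%.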
